A study of Mus musculus with 5 samples.

Results

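Serine palmitoyltransferase and ceramide synthesis were followed through 10 genes in the mouse neuroblastoma line N2a after knockdown of Ewsr1, which encodes an RNA- and DNA-binding protein. The genes were Sptlc1, Sptlc2, Sptssa, Sptssb, Ormdl1, Ormdl2, Ormdl3, Kdsr, Cers2 and Cers5, taken by name from the 54838 genes listed in each library. Sptssa was known from these same libraries to be higher after the knockdown when the 10 genes were chosen, so its difference is described here and supports nothing. The question was whether Sptssa moved alone among them. Repeated lipid transfection delivered either a control siRNA (siCtrl, n = 2 libraries) or an siRNA against Ewsr1 (siEwsr1, n = 3 libraries) to 50000 cells. Cells were harvested 24 hours from the final transfection, and 2 µg of total RNA was sequenced after ribosomal RNA removal. All libraries share the cell line and the transfection reagent. The siRNA concentration is labelled 100 µM, and whether replicates are separate cultures is not labelled. The p-values therefore measure library-to-library spread only, and this may be technical.

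Serine palmitoyltransferase catalyses the first and rate-limiting step of sphingolipid synthesis, the condensation of serine with palmitoyl-CoA in the endoplasmic reticulum membrane. Sptlc1 and Sptlc2 form the catalytic core, the small subunits Sptssa and Sptssb raise its activity and tune its choice of acyl-CoA, and the Ormdl proteins bind the complex and restrain it when ceramide is plentiful. Kdsr then reduces the ketone product, and ceramide synthases of the Cers family attach a fatty acid of a length that depends on the synthase. Ceramide is the precursor of sphingomyelin and of the glycosphingolipids that are abundant in neuronal membranes.

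The small subunits are short proteins, and the coding sequence of Sptssa is shown beside that of Sptssb because only the former was detected. Both were read from the GENCODE M21 transcripts. Capitals mark the letters TCACTGC, which are taken up again further on.
Sptssa: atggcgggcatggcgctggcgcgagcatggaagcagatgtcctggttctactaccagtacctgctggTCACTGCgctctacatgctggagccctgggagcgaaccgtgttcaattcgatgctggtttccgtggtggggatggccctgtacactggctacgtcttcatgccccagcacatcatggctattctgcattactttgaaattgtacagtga
Sptssb: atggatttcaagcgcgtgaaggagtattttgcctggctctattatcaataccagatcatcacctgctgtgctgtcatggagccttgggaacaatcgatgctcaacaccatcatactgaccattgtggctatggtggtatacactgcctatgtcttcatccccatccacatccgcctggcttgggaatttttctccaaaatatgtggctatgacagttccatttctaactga
The coding sequence of Sptssa has 216 bases, in a transcript of 2 exons, and encodes 71 amino acids, and that of Sptssb has 231 bases and encodes 76. The pair is identical at 151 of 250 aligned positions (60.4%), and the longest stretch shared by the transcripts is 12 bases. None of the 50-base windows of Sptssb occurs in another gene, so reads of that length from the small subunits can be told apart. In Sptssa, 1.98% of the 50-base windows are shared, with the microRNA gene Mir1892 that lies inside it.

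The level of a gene is its RPKM, a read count divided by exonic length and library total, which allows comparison between genes. The libraries held 15045774 to 21339459 counted reads. Along the first principal component of all 14922 tested genes, which carried 45.4% of the variance, siEwsr1 replicate 3 lay nearest to the siCtrl libraries (-0.485, against 16.5 and 33.9 for the other siEwsr1 libraries and -21.2 and -28.8 for siCtrl). The target Ewsr1 was at 71.7 and 72.3 RPKM under siCtrl, against 35.7, 36.3 and 37.6 RPKM under siEwsr1, a log2 fold change of -0.95 (SE 0.075, limma adjusted p = 0.0213). Fold changes are on the log2(RPKM + 0.1) scale. The neuroblastoma and neuronal markers Hand2 (84.8 to 106 RPKM over the 5 libraries), Gap43 (98.1 to 121 RPKM) and Stmn2 (21.8 to 23.5 RPKM) were expressed in every library. Of 7 fibroblast markers, Lum was listed at 0 and Acta2 fell. That list summed to 3.23 to 3.44 RPKM in siCtrl and to 1.16 to 1.37 RPKM in siEwsr1. The immune, epithelial, endothelial and glial lists summed to at most 1.42 RPKM in any library. The part of these markers in the results was not tested.

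Of the 10 genes, 9 passed the filter on low reads and were tested, and Sptssb did not. Sptssa was the only one to pass the threshold, an adjusted p under 0.05 over all tested genes in limma, and it was higher. Across all genes 115 were called higher (0.771%) and 138 lower (0.925%). In either direction that was 1.7% of all genes, and 0.161% were called and at least 2-fold higher, as Sptssa was. No gene among the 10 was called lower. In bulk RNA, fewer cells with a transcript and less of it per cell cannot be told apart. The count depends on how the variance was modelled. With limma's variance trend drawn over the mean number of reads of a gene in place of its mean log2 RPKM, an alternative chosen after seeing the data, Ormdl2, Kdsr and Cers2 were called higher as well, 4 of 9, beside 2.45% of all genes called higher and 2.64% lower. The fold changes are the same in both fits. With limma voom on the recovered reads the same 4 genes were called higher and Ormdl3 was called lower, beside 2.55% of all genes higher and 3.04% lower. By their values alone, the siEwsr1 libraries lay entirely above the siCtrl libraries for 5 of the 9 genes and entirely below for 2, beside 19.9% of all genes in each direction and 39.8% in either.

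**Figure D1:**
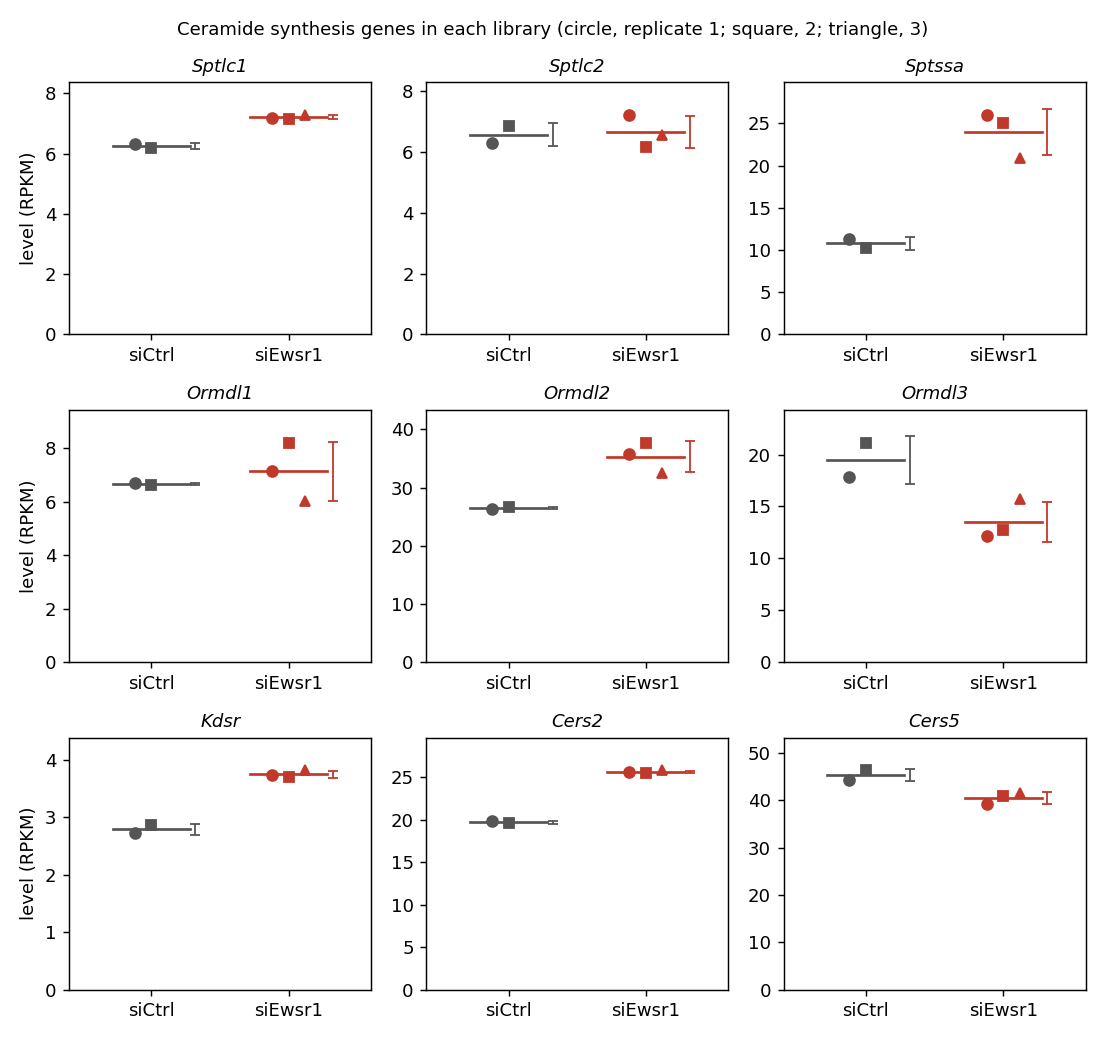
Level in RPKM (vertical axes, from 0) of the 9 detected genes in each siCtrl library (grey, n = 2) and siEwsr1 library (red, n = 3). Symbols are single libraries, horizontal lines are group means and the bars beside them are 1 SD. Sptssa shows the widest gap, with siCtrl at 10.2 and 11.3 RPKM and siEwsr1 between 20.9 and 26.0 RPKM.

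Among the subunits of the enzyme, only the small subunit gene Sptssa (ENSMUSG00000044408, chr12:54645392-54656573 on GRCm38, minus strand) differed by more than 2-fold. Per library, Sptssa stood at 11.3 and 10.2 RPKM under siCtrl, against 26.0, 25.1 and 20.9 RPKM under siEwsr1. The groups did not overlap, and siEwsr1 replicate 3 was the lowest of its group. Averaged, this gave 10.8 ± 0.770 RPKM (SD, n = 2) against 24.0 ± 2.72 RPKM (SD, n = 3), a log2 fold change of 1.16 (SE 0.129) or 2.24-fold, rank 37 of the 14922 genes from the highest. Between 269 and 813 reads per library lie behind these values. Leaving out siCtrl replicate 1, then siCtrl replicate 2, gave log2 fold changes of 1.25 and 1.07 against a lone control. Without siEwsr1 replicate 1 the log2 fold change was 1.10 and the limma adjusted p 0.124. Without the filter on low reads the limma adjusted p was 0.0845. Sptssa was not called in any of these. Neither without siEwsr1 replicate 1 nor without the filter was any gene called, Ewsr1 included (limma adjusted p = 0.1225 and 0.0641).

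The catalytic subunit genes were expressed at similar levels to each other. Sptlc1 (ENSMUSG00000021468, chr13:53332748-53377397) was at 6.31 and 6.19 RPKM in siCtrl, against 7.20, 7.14 and 7.27 RPKM in siEwsr1. All siEwsr1 values were above both siCtrl values. The fitted difference of 16.8% did not pass the test (log2 fold change 0.22, SE 0.091, limma adjusted p = 0.237). Sptlc2 (ENSMUSG00000021036, chr12:87305058-87388355), whose product carries the catalytic lysine, was at 6.31 and 6.84 RPKM in siCtrl, against 7.21, 6.17 and 6.56 RPKM in siEwsr1. Here the groups overlapped, with a log2 fold change of 0.04 (SE 0.109, limma adjusted p = 0.880). The other small subunit gene, Sptssb (chr3:69819542-69859940), and Sptlc3, which encodes an alternative catalytic subunit, were listed at 0 in all 5 libraries. For Sptssb a count of 0 allows up to 3 reads, which is 0.077 to 0.109 RPKM depending on the library, and covers counting error only.

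The balance between small and large subunit transcripts was compared as ratios within each library. The ratio of Sptssa to Sptlc1 was 1.79 and 1.65 under siCtrl, against 3.61, 3.51 and 2.87 under siEwsr1. The ratio of Sptssa to Sptlc2 was 1.795 and 1.496 in siCtrl, against 3.60, 4.07 and 3.18 in siEwsr1. Neither ratio overlapped between the groups, and both contain the gene that was chosen for its rise. The ratio of Sptlc2 to Sptlc1, which does not contain it, was 0.999 and 1.11 in siCtrl, against 1.002, 0.863 and 0.903 in siEwsr1, and the groups overlapped.

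**Figure D2:**
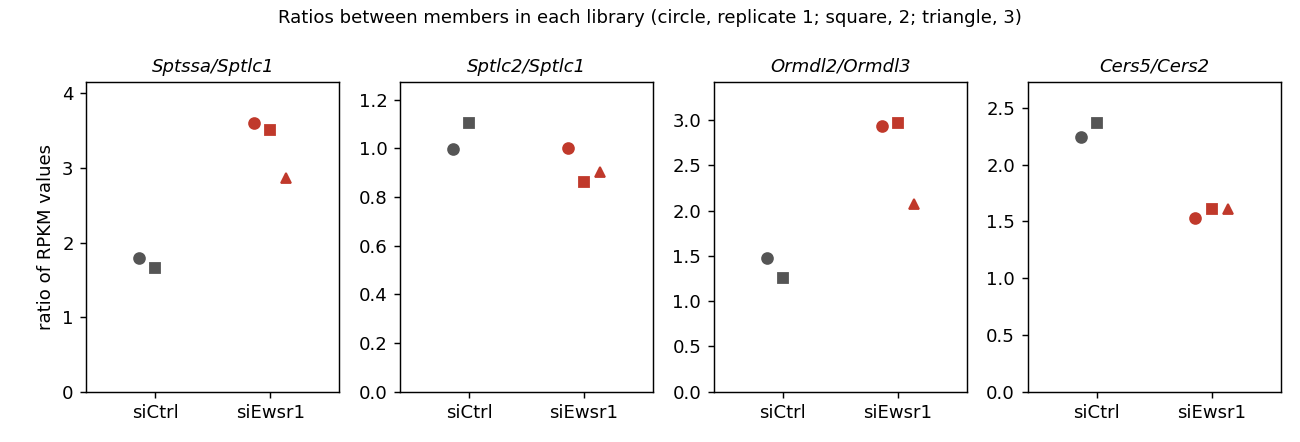
Ratio of RPKM values (vertical axes, from 0) in each siCtrl library (grey) and siEwsr1 library (red), with a symbol for each replicate number. The ratio of Sptlc2 to Sptlc1 overlaps between the groups, and those of Sptssa to Sptlc1, Ormdl2 to Ormdl3 and Cers5 to Cers2 do not. In the Ormdl and Cers ratios the genes lie wholly on opposite sides of their controls, which fixes that outcome.

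The Ormdl regulator genes lay on different sides of their control levels, and none passed the test in the reported fit. Ormdl2 (ENSMUSG00000025353, chr10:128817902-128821645) was at 26.3 and 26.6 RPKM in siCtrl, against 35.7, 37.7 and 32.6 RPKM in siEwsr1. Every siEwsr1 library was above both siCtrl libraries, with a log2 fold change of 0.44 (SE 0.097, limma adjusted p = 0.0824). The adjusted p was 0.0412 with the trend over reads and 0.0159 without siEwsr1 replicate 3. Ormdl3 (ENSMUSG00000038150, chr11:98581256-98587368) was at 17.9 and 21.1 RPKM in siCtrl, against 12.2, 12.7 and 15.7 RPKM in siEwsr1. Every siEwsr1 library was below both siCtrl libraries, with a log2 fold change of -0.51 (SE 0.129, limma adjusted p = 0.104), and siEwsr1 replicate 3 lay closest to the controls. Without that library the log2 fold change was -0.61 and the adjusted p 0.0205. Leaving it out gave 967 of 14574 tested genes called higher and 950 lower, beside 115 and 138 of 14922 in the reported fit. Ormdl1 (ENSMUSG00000026097, chr1:53297095-53310309) was at 6.69 and 6.63 RPKM in siCtrl, against 7.15, 8.20 and 6.02 RPKM in siEwsr1, and the groups overlapped (log2 fold change 0.11, SE 0.149, limma adjusted p = 0.725).

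Ormdl2 stood above its controls and Ormdl3 below. Summed over the family, the level was 50.9 and 54.4 RPKM in siCtrl, against 55.1, 58.6 and 54.3 RPKM in siEwsr1, and the groups overlapped. The ratio of Ormdl2 to Ormdl3 was 1.47 and 1.26 in siCtrl, against 2.94, 2.97 and 2.07 in siEwsr1. As Ormdl2 lay wholly above its controls and Ormdl3 wholly below, this ratio could not overlap. The Ormdl coding sequences all have 462 bases and are 73.4% to 76.0% identical in pairs, with at most 19 bases in a row shared between the transcripts of a pair. Ormdl2 shares 1114 of its 1670 exonic bases (66.7%) with Dnajc14 on the opposite strand, and the strand setting of the counting is not given in the sources used here. Dnajc14 was at 12.8 RPKM in siCtrl, against 11.9 RPKM in siEwsr1 on average (log2 fold change -0.08, limma adjusted p = 0.634). Without strand, reads of this pair could not be told apart. Ormdl1 shares 411 exonic bases (8.72%) with the same-strand gene Gm28778, and 8.02% of its 50-base windows occur in that and many other genes. For Ormdl3, 4.496% of the 50-base windows occur in Gm12538.

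Downstream of the transferase, Kdsr and Cers2 were higher in every siEwsr1 library and Cers5 was lower. Kdsr (ENSMUSG00000009905, chr1:106720459-106759727), the ketosphinganine reductase, was the least abundant detected gene of the 10, at 2.72 and 2.86 RPKM in siCtrl, against 3.73, 3.69 and 3.81 RPKM in siEwsr1. Its log2 fold change was 0.43 (SE 0.110, limma adjusted p = 0.103), and the adjusted p was 0.0441 with the trend over reads. Cers2 (ENSMUSG00000015714, chr3:95314791-95323599), the synthase that prefers very long acyl chains, was at 19.8 and 19.6 RPKM in siCtrl, against 25.6, 25.5 and 25.8 RPKM in siEwsr1. The SD of Cers2 in siEwsr1 was 0.170 RPKM, and the log2 fold change was 0.40 (SE 0.077, limma adjusted p = 0.0598). This gene was called with the trend over reads (0.0290), with a stricter filter of 50 reads (0.0399) and without siEwsr1 replicate 3 (0.0204). These settings call more genes in all. The filter of 50 reads gave 230 of 11369 tested genes higher and 334 lower. Leaving out siEwsr1 replicate 3 gave 967 of 14574 higher and 950 lower. Cers5 (ENSMUSG00000023021, chr15:99734881-99772885), a synthase for palmitoyl-length chains, was the most abundant of the 10, at 44.4 and 46.3 RPKM in siCtrl, against 39.1, 40.9 and 41.6 RPKM in siEwsr1. The groups did not overlap, and the log2 fold change of -0.14 did not pass the test (SE 0.076, limma adjusted p = 0.356). The ratio of Cers5 to Cers2 was 2.24 and 2.37 in siCtrl, against 1.53, 1.61 and 1.61 in siEwsr1. Here too the genes lay wholly on opposite sides of their controls, so the ratio could not overlap.

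Ordered by mean siCtrl level, the genes ran Cers5, Ormdl2, Cers2, Ormdl3, Sptssa, Ormdl1, Sptlc2, Sptlc1 and Kdsr. Cers2 and Ormdl3 did not differ beyond the spread of the siCtrl libraries, nor did Ormdl1 and Sptlc2, or Sptlc2 and Sptlc1. In siEwsr1 the order was Cers5, Ormdl2, Cers2, Sptssa, Ormdl3, Sptlc1, Ormdl1, Sptlc2 and Kdsr, so Sptssa and Ormdl3 had changed places. Cers2 and Sptssa overlapped, as did Sptlc1, Ormdl1 and Sptlc2, within the siEwsr1 libraries. The median log2 fold change was 0.22 over the 9 tested genes and 0.17 without Sptssa, beside -0.005 over all tested genes.

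The rest of the sphingolipid pathway was read from 10 lists by role, holding 71 genes besides those above. Of the 56 that were tested, 3 were called higher and none lower, beside 0.771% of all genes called higher and 0.925% lower. Their median log2 fold change was 0.02. Cers4, a ceramide synthase for long acyl chains, was at 2.10 and 2.31 RPKM in siCtrl, against 3.78, 3.69 and 4.25 RPKM in siEwsr1 (log2 fold change 0.82, SE 0.123, limma adjusted p = 0.0392). Elovl6, which elongates palmitoyl-CoA, was at 13.7 and 12.8 RPKM in siCtrl, against 21.5, 21.3 and 20.1 RPKM in siEwsr1 (log2 fold change 0.68, SE 0.091, limma adjusted p = 0.0277). Cerk, the ceramide kinase, was at 7.87 and 8.83 RPKM in siCtrl, against 13.0, 11.8 and 13.6 RPKM in siEwsr1 (log2 fold change 0.63, SE 0.099, limma adjusted p = 0.0418). None of these was called when siEwsr1 replicate 1 was left out or without the filter on low reads, and neither was any other gene. Nor were these 3 called when either siCtrl library was left out, which leaves a lone control. Cers4 was also lost without siEwsr1 replicate 2 (adjusted p = 0.0522) and Cerk with scaling to the library total alone (adjusted p = 0.0517). With the trend over reads 4 of the 56 were called higher and 2 lower, beside 2.45% of all genes higher and 2.64% lower. This added Sgpl1 upward and Hacd1 and Hacd4 downward, named after their values were seen.

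The other abundant pathway genes did not pass the test. Over all genes 1.7% were called in either direction, so the absence of calls from a short list says little. Degs1, the desaturase that completes ceramide, was at 67.1 ± 1.95 RPKM (SD, n = 2) and 58.2 ± 1.16 RPKM (SD, n = 3), and Cers6 at 5.33 ± 0.249 and 5.08 ± 0.3003 RPKM. Among the 11 tested elongation genes, the reductase Hsd17b12 had a log2 fold change of -0.08 and the dehydratase Hacd3 of 0.06. One list joins ceramide transport, ceramide phosphorylation and sphingomyelin synthesis. Its most abundant uncalled genes were Samd8, with a log2 fold change of -0.20, and the ceramide carrier Col4a3bp, with 0.04. None of the 8 tested glycosphingolipid synthesis genes was called, Ugcg and B4galt5 having log2 fold changes of 0.11 and 0.13. None of the 8 tested breakdown genes was called either, and the ceramidase Asah1 and the sphingomyelinase Smpd3 had log2 fold changes of 0.01 and 0.08. The sphingosine phosphate genes Sgpl1, the lyase, and Sgpp1, a phosphatase, had log2 fold changes of 0.39 and 0.03, and the receptor S1pr2, the only receptor of 5 that was tested, of 0.10. Of 11 lysosomal genes none was called, Psap and Hexa having log2 fold changes of -0.35 and -0.23. The limma adjusted p of these uncalled genes ran from 0.0829 for Sgpl1 to 0.977 for Asah1.

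**Figure D3:**
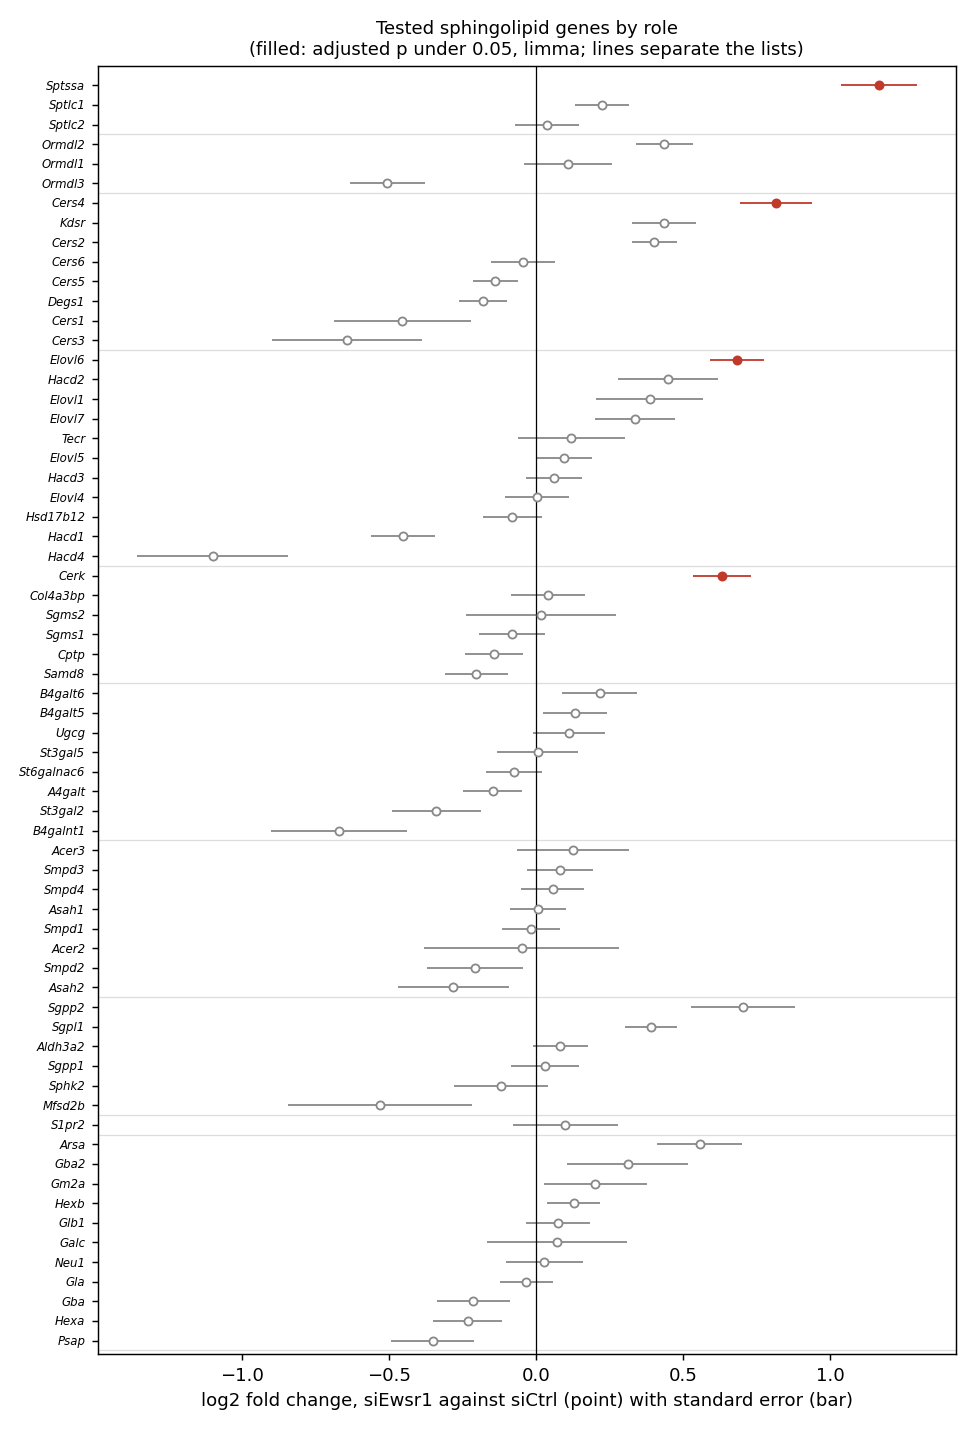
Log2 fold change of siEwsr1 against siCtrl (horizontal axis) with its standard error (bars) for the 65 tested sphingolipid genes, grouped by list with lines between the lists. Filled points passed an adjusted p under 0.05 in limma. They are Sptssa, Cers4, Elovl6 and Cerk, all to the right of 0.

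Genes were also ranked by their likeness to Sptssa over the 5 libraries. Likeness was the root mean square distance in log2 RPKM relative to the siCtrl mean, ranked over 14921 genes, with Sptssa's own rise setting the pattern. The nearest were E2f5 (distance 0.065), a transcription factor, Snrpe (0.069), a core protein of spliceosomal particles, Api5 (0.073), Smim15 (0.074) and Slc25a46 (0.102). Ormdl2 ranked 817, Kdsr 897, Cers2 1038 and Sptlc1 2719, whereas Cers5 ranked 9679 and Ormdl3 13609. These ranks follow the order of the log2 fold changes, so they add little to them.

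Neighbouring genes on chromosome 12 were examined next. Of the 3 nearest tested genes on each side of Sptssa by gene start, none of the 6 was called, beside 1.7% of all genes. Their limma adjusted p lay between 0.0598 and 0.481. On one side, Eapp (24.9 kb away) had a log2 fold change of 0.13, and the small nuclear RNA genes Gm22513 (51.4 kb) and Gm22634 (64.9 kb) had -0.68 and -1.19. On the other side the genes start 1397 to 2141 kb away, and Npas3, Akap6 and Arhgap5 had log2 fold changes of -0.73, -0.26 and 0.37. For each of the 6 the groups did not overlap, beside 39.8% of all tested genes in either direction. Whether the neighbours differ as a set was not tested.

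The promoter of Sptssa is shown because the gene's RNA differed most. It was taken from RefSeq on GRCm38.p6, chr12:54656523-54656822 on the minus strand, 250 bases before to 50 after the start. Capitals mark the motifs CCAAT and GGGCGG, searched on both strands together with TATAAA.
Sptssa promoter: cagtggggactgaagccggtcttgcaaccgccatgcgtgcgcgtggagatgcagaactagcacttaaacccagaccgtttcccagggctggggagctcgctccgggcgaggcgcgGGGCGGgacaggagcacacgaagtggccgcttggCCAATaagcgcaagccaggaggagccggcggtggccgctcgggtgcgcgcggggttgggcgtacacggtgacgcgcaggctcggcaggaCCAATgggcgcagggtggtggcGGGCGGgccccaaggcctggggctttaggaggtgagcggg
The window has 70% GC and 31 CpG dinucleotides, beside medians of 52.67% and 7 over 32851 promoters. It holds CCAAT, found in 37.4% of all promoters, and GGGCGG, found in 35.7%, and lacks TATAAA, found in 13.6%. These are matches of letters, not sites of binding.

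The letters TCACTGC, a 7-mer picked out earlier from these same fold changes, were looked up in the 10 genes on the transcript strand. The Sptssa 3′ UTR holds none and its coding sequence 1, at position 68 (chr12:54656410-54656416). The 3′ UTRs of Ormdl2 (chr10:128818253-128818259), Cers2 (chr3:95323353-95323359) and Sptlc2 (chr12:87305842-87305848) hold 1 each. The matches are shown with their flanks, in capitals, on GRCm38.
Sptssa coding: gtacctgctggTCACTGCgctctacatgc
Ormdl2 3′ UTR: aggcaggagaaTCACTGCaatctggagtc
Cers2 3′ UTR: ttcctaggatcTCACTGCctccctctctg
Sptlc2 3′ UTR: cttgtcccgtgTCACTGCttttgtgtaaa
Among all genes, 10.3% of 3′ UTRs and 14.3% of coding sequences hold these letters. The genes with a match include Sptssa, with the largest log2 fold change of the 10, and Sptlc2, with the smallest in size among those tested. A match is a description, and its part in the levels was not tested. GCAATTT, also picked out earlier from these fold changes, occurs in no 3′ UTR or coding sequence of the 10 genes. It is held by 6.81% of all 3′ UTRs and 5.05% of all coding sequences.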

How the data were processed

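Total RNA of 5 N2a libraries was grouped by sample title. Per the submitters' processing notes, the authors used STAR 2.5.2b, featureCounts 1.5.1 and edgeR on GRCm38. Neither annotation release nor strand setting was given in the sources used here. The deposited values behave as RPKM, but those of 1 or more had lost their decimal point. The position was restored so that value, exonic length (GENCODE M21, holding 54809 of the 54838 identifiers) and library total gave whole reads within 1e-06. Where several positions did so, the choice favoured low positions and values lying close together over the libraries of both groups. Of 27255 genes above 0, 600 needed a length solved from the values, 12 stayed unresolved and 96 were left out for low odds. Recovered reads summed to within 0.0720% of each total. For 3 of the 10 genes (Ormdl2, Ormdl3 and Cers5) a decimal position above the lowest was chosen. The same was so for Ewsr1, for Elovl6 and for some other named genes. An alternative fit with genes read only at the lowest decimal position leaves all of these out.

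Genes with at least 10 reads in at least 2 libraries were tested with limma 3.58.1 (R 4.3.3) on log2(RPKM + 0.1) after trimmed-mean scaling, with group as sole term, limma's variance trend over mean log2 RPKM, robust moderation and Benjamini-Hochberg adjustment over 14922 genes. Fold changes on this scale understate those of low genes. The restoration and the fit were also run on reads simulated from the recovered reads and lengths, with a fixed spread. Such data cannot check the solved lengths or the spread of the real libraries, and the outcome is not given here. A variance trend over log2 mean reads was added after both outcomes had been seen, and gives more calls. The plan named limma's trend without its covariate, which was read as limma's default. Other alternatives were pseudocounts, filters, scalings, limma voom, a replicate block and leaving out each library. All 10 genes are named. Of the other pathway genes, those called and the 2 uncalled ones with the largest mean RPKM of each list are named. Results of part of the neuronal marker list are not reported here. The 10 genes, the lists and the tests were chosen with earlier results of these data known.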

Additional observations from a re-analysis of the deposited data

How the results depend on the processing

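Sptssa kept its direction in all 16 alternatives, with log2 fold changes of 1.07 to 1.27, and was called in 12. It was not called without the filter on low reads or without siEwsr1 replicate 1. In those settings no gene was called, Ewsr1 included. Nor was Sptssa called without either siCtrl library, which leaves a lone control. Among the 10 genes, 1 was called higher in the reported fit, 0 without the filter, 2 with a filter of 50 reads, 4 with limma voom, and 4 with the variance trend over reads. Leaving out a library gave 0 to 3. The count called lower was 0, and 1 with limma voom, with 0 to 1 on leaving out a library. For the rest of the pathway the count called higher was 3 and that called lower 0. Without the filter 0 were higher, a filter of 50 reads gave 1 lower, and limma voom and the trend over reads each gave 2 lower. Leaving out a library gave 0 to 4 higher and 0 to 3 lower.

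Over all genes 115 were called higher and 138 lower. Without the filter these were 0 and 0, with the filter of 50 reads 230 and 334, with limma voom 380 and 453, with genes read only at the lowest decimal position 54 and 77, and with the trend over reads 365 and 394, of which 245 calls were shared with the reported 253. Leaving out a siEwsr1 library gave 0 to 967 higher and 0 to 950 lower. Both counts were 0 without siEwsr1 replicate 1 and largest without siEwsr1 replicate 3. Without a siCtrl library the lone control is assumed to vary like the other group. On leaving out a library, the log2 fold change of Sptlc2 ran from -0.02466 (without siEwsr1 replicate 1) to 0.08251 and was -0.007787 without siCtrl replicate 1. That of Ormdl1 ran from -0.003988 (without siEwsr1 replicate 2) to 0.2267. The cause of these shifts was not tested.

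The replicate numbers were not shown to pair the libraries: deviations of same-numbered libraries correlated at 0.0314 (number 1) and -0.124 (number 2) across genes. With the replicate block 247 genes were called higher and 253 lower, 2 of the 10 genes higher (Sptssa and Ormdl2, the latter with a limma adjusted p of 0.0479) and 1 lower (Ormdl3, 0.0418). Of the other pathway genes 1 was called higher, Elovl6, while Cers4 and Cerk were not (0.0514 and 0.0503). Depth set the filter, and Sptssb could not be tested.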
